A study of Mus musculus with 24 samples.

Results

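The genes described here are the main cytosolic heat shock genes and the best known cold-induced genes of the mouse, measured in the visual cortex. The 8 heat shock genes were Hspa1a, Hspa1b, Hspa8, Hsph1, Hsp90aa1, Dnajb1, Dnaja1 and Hspb1, and the 2 cold-induced genes were Cirbp and Rbm3. They were taken by symbol from a table of 55414 genes. All 10 were among the 14464 genes that reached a count of at least 30 in any library and were tested.

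RNA came from the visual cortex of 24 male C57BL/6J mice of 8 to 10 weeks, held on a reversed light cycle and used in its dark phase, with 6 mice in each of 4 groups. Dark mice received the vehicle PBS and stayed in the dark, light mice received PBS and were moved into light for 2.5 h, psilocybin-dark mice received 5 mg/kg psilocybin by intraperitoneal injection and stayed in the dark, and psilocybin-light mice received the same dose and were moved into light for 2.5 h. Psilocybin is a hallucinogen whose product psilocin activates serotonin receptors. The values are counts of poly-A RNA from pieces of bulk tissue, in which fewer cells of a type and less RNA per cell cannot be told apart. Each library was counted as 1 mouse, and p-values measure the spread between these mice.

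When proteins unfold, as in heat, the transcription factor HSF1 binds heat shock elements, which are inverted repeats of the unit GAA, and switches on genes for chaperones. HSP70 proteins hold unfolded chains in a cycle driven by ATP, J-domain proteins such as DNAJB1 and DNAJA1 bring them clients, HSP110 proteins such as HSPH1 exchange their nucleotide, HSP90 matures kinases and receptors, and small heat shock proteins such as HSPB1 keep unfolded proteins from clumping. Cirbp and Rbm3 encode RNA-binding proteins that rise with mild cooling and fall with warming, so both sets are read as molecular thermometers of tissue. Body temperature was not among the measurements used here.

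The light exposure of the libraries is given by 2 sources that differ. Headings of the study's supplementary count table were followed here, and its counts were equal to the deposited ones for 1457 of 1457 genes compared. The sample labels give the same drug but the opposite exposure for 24 of 24 libraries. Under the labels each test between groups keeps its size and light and dark change places in its name, so that what is called psilocybin-light against dark becomes psilocybin-dark against light, and light against dark turns its sign.

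Total counts per library were 13552516 to 17906994, and normalized counts are these counts brought to a common library size. Cortical neuron markers (7 of 7 detected) summed to 29420 to 40260 normalized counts per mouse, except for 12810 in dark mouse 1 and 21690 in dark mouse 6, and 5 of the 7 were called higher in each of the other groups than in dark mice. Markers of other brain regions were present as well, and 4 mice stood apart. The 10 markers of cerebellum summed to 94070 normalized counts in dark mouse 6, 46520 in dark mouse 1, 45600 in psilocybin-dark mouse 12 and 28930 in light mouse 18, against 2886 to 6283 in the other 20 mice. No cerebellar marker was at 0 in all mice. The 13 markers of hippocampus, all detected and 11 tested, summed to 7030 to 10770 in dark mice, 4200 to 6715 in light mice, 4019 to 7235 in psilocybin-dark mice and 3770 to 4907 in psilocybin-light mice, with 5, 3 and 7 of the 11 called lower than in dark mice and 1, 1 and 0 called higher. Results are therefore given for all 24 mice and again without the 4 mice that stood apart, a choice made after their values were seen. The part that tissue from other regions had in the values was not tested, beyond the fits given beside each result.

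Promoters were searched for letters of the heat shock element next to the start of the genes. Promoter windows of RefSeq on GRCm38.p6, from 250 bases before to 50 bases after a start, matched 7 of the 10 genes with 12 windows. Each was searched on both strands for a pair of inverted units, GAANNTTC or TTCNNGAA, which overlap where 3 units follow each other. Hspa1a, Hspa1b, Hsph1, Dnaja1 and Hspb1 held such a pair, which was found in 15.1% of 32851 windows of all genes. Whether HSF1 binds at such a match was not tested. The following stretches before the start are shown because they hold the pair, 5′ to 3′ on the gene's strand, with the pair and its spacer in capitals.
Hspa1a, chr17:34972228-34972285, minus strand: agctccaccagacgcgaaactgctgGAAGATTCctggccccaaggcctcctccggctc
Hspa1b, chr17:34959310-34959367, minus strand: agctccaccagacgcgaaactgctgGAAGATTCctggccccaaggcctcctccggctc
Hspb1, chr5:135887777-135887854, plus strand: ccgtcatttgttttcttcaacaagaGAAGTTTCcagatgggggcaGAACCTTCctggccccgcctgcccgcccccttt
Hsph1, chr5:149636337-149636394, minus strand: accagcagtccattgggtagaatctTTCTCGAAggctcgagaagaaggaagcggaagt
Dnaja1, chr4:40722319-40722376, plus strand: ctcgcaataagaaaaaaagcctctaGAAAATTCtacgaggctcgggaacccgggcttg

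The stretches of Hspa1a and Hspa1b were equal at 58 of 58 bases. Hspb1 held 2 pairs before its start. A run of 3 alternating units lay in the windows of Hsph1 alone among the matched genes, after the start, against 0.603% of all windows. The windows of Dnajb1 and Cirbp held no match, which says only that these letters are not in those windows. Hspa8, Hsp90aa1 and Rbm3 are given without sequence.

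Levels differed widely between the 10 genes. Divided by the length of merged exons (CPM per kilobase), the mean level over 24 mice was 131 for Hsp90aa1, the stress-inducible form of HSP90, and 112 for Hspa8, the HSP70 that cells make at all times. Merged exons span 8680 bases in Hspa8 and 4603 in Hsp90aa1, against 2433 and 3912 in their longest coding transcripts. The order of genes on this scale thus depends on the length chosen. Hsph1 had a level of 39.0, Dnajb1 of 23.9 and Dnaja1 of 18.5 on the same scale. Cirbp had 8.42, Hspb1 5.21, Rbm3 4.16, Hspa1b 3.97 and Hspa1a 2.34. Among these last genes the neighbours Hspb1 (SD 2.01), Rbm3 (SD 1.11) and Hspa1b (SD 1.22) lay within 1 SD of each other, while Hspa1a, the paralog of Hspa1b, was the lowest. The inducible HSP70 genes were thus at a small fraction of the constitutive one in all 4 groups.

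Some of these levels are uncertain because genes share sequence. Of the stretches of 50 bases in its longest coding transcript, Hspa1a shared 60.3% with other genes, mainly Hspa1b, which lies beside it on chromosome 17, and Hspa1b shared 62.3%. The share was 70.1% for Hspa8, 47.6% for Hsp90aa1 and 45.8% for Hspb1, mainly with processed pseudogenes, 18.2% for Dnaja1 and 15.6% for Rbm3. It was 0.344% for Dnajb1 and 0 for Hsph1 and Cirbp. How the counting treated reads that map to several places, or the strand, is not given in the sources used here.

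**Figure D1:**
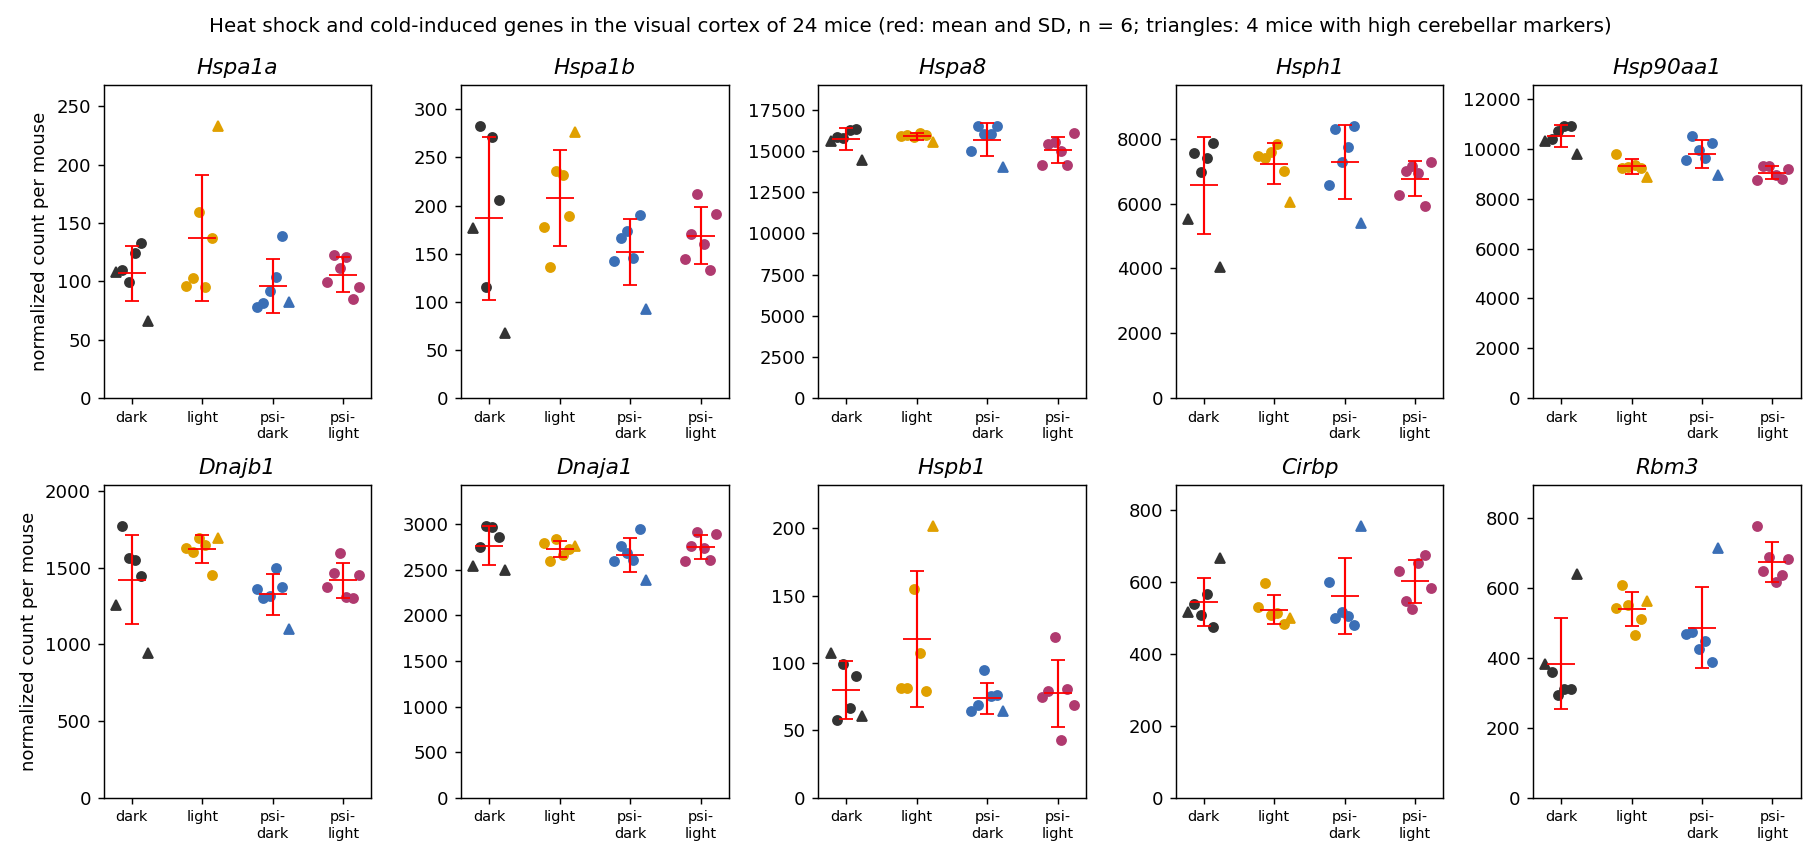
Normalized count per mouse (vertical axis, from 0) for the 10 genes in 4 groups of 6 mice, with the mean and SD in red and triangles for the 4 mice with high cerebellar markers; psi stands for psilocybin. Rbm3 of psilocybin-light mice lay between 618 and 779, above all light mice, and dark mouse 6 at 640 and psilocybin-dark mouse 12 at 714 lay far above the rest of their groups.

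Rbm3 was the member that differed most between groups. It lies on chromosome X (GRCm39, chrX:8004213-8012119, minus strand) and encodes a glycine-rich RNA-binding protein. Its lowest, median and highest normalized counts were 294, 336.2 and 640 in dark mice and 465, 547.5 and 610 in light mice. They were 390, 458.6 and 714 in psilocybin-dark mice and 618, 665.3 and 779 in psilocybin-light mice. Psilocybin-light mice were above all light mice with no overlap, and above the dark and psilocybin-dark mice except for dark mouse 6 and psilocybin-dark mouse 12.

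Against dark mice, Rbm3 rose in light mice by a log2 fold change of 0.50 ± 0.16 (SE, n = 6 mice a group), or 1.41-fold, with an adjusted p of 0.0181 in edgeR's quasi-likelihood test (Benjamini-Hochberg over all genes tested, called under 0.05). It rose in psilocybin-light mice by 0.82 ± 0.16, or 1.76-fold, with an adjusted p of 0.000288. In psilocybin-dark mice the log2 difference from dark was 0.34 ± 0.16 and did not pass the threshold (adjusted p = 0.115 in edgeR). Psilocybin-light mice differed from psilocybin-dark mice by a log2 value of 0.47 (95% confidence interval 0.15 to 0.79, adjusted p = 0.072) and from light mice by 0.32 (0.00 to 0.64, adjusted p = 0.515), neither past the threshold. The interaction of light and psilocybin, the psilocybin effect in light less that in dark, was −0.02 with an interval from −0.48 to 0.43 (adjusted p = 0.968).

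An exact permutation test of the mean log2 level, two-sided over all divisions of 6 mice against 6 and adjusted over 60 tests, called no member in any comparison. Its smallest possible p, 0.00216, passes this adjustment only if several of the 60 tests reach it. The lack of calls therefore decides little. For Rbm3 this exact permutation test gave p = 0.0173 (adjusted 0.115) for light against dark, p = 0.00649 (adjusted 0.0779) for psilocybin-light against dark, and p = 0.00216 (adjusted 0.0649) for psilocybin-light against light, the last being the smallest p that this design allows. In the comparison of psilocybin-light with light mice, 1 of the 10 genes, Rbm3, had groups that did not overlap, and so had 1.62% of all genes tested.

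The Rbm3 values were closer within groups once the 4 mice with high cerebellar markers were left out. The counts were 294 to 360 in 4 dark mice, 390 to 475 in 5 psilocybin-dark mice, 465 to 610 in 5 light mice and 618 to 779 in 6 psilocybin-light mice. The ranges overlapped between psilocybin-dark and light mice and in no other pair. Rbm3 then passed the threshold in all 6 pairs of groups. The log2 difference from dark mice became 0.75 ± 0.08 (SE; adjusted p = 9.41e-07 in edgeR) in light mice, 0.46 ± 0.09 (adjusted p = 0.00026) in psilocybin-dark mice and 1.09 ± 0.08 (adjusted p = 7.07e-09) in psilocybin-light mice. Psilocybin-light mice were higher than psilocybin-dark mice by 0.63 (adjusted p = 9.76e-05 in edgeR) and higher than light mice by 0.34 (adjusted p = 0.0146), and psilocybin-dark mice were lower than light mice by a difference of −0.29 (adjusted p = 0.0365). The interaction was −0.12 ± 0.11 (SE) and did not pass the threshold (adjusted p = 0.452 in edgeR).

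The hippocampal markers moved with the dark group, so the mean log2 level of the marker list was added to the fit as a covariate. With all 24 mice no member passed the threshold in any comparison in that fit. Over all genes it called 4.31% higher and 5.19% lower in light against dark. The shares were 0.747% and 0.56% in psilocybin-dark against dark and 4.38% and 7.29% in psilocybin-light against dark. They were lower than without the covariate, which bears on the list calls below too. Among dark mice only dark mouse 6, at 3.37, lay within the range of the other groups in this covariate. The Rbm3 differences from dark became 0.16 (adjusted p = 0.662 in edgeR) in light and 0.40 (adjusted p = 0.249) in psilocybin-light mice. With the covariate and without the 4 mice that stood apart, they were 0.79 ± 0.20 (SE; adjusted p = 0.142) and 1.13 ± 0.22 (adjusted p = 0.0487). The size of the Rbm3 differences in this last fit was as large as without the covariate, while their errors were over 2 times larger. In that fit the covariate was 4.35 to 4.65 in the 4 dark mice and 3.74 or lower in every other mouse. It nearly copied the division of dark from the other mice, so the fit cannot separate the 2 and the unchanged size settles nothing. Of 14464 genes it called 13 in light and 19 in psilocybin-light against dark. In the same fit Rbm3 was higher in psilocybin-light than in light mice by 0.34 (adjusted p = 0.0218 in edgeR) and than in psilocybin-dark mice by 0.63 (adjusted p = 0.000158). Hippocampal markers of these groups overlapped. Neither difference was called with the covariate over all 24 mice, and the part of hippocampal tissue in them was not tested.

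**Figure D2:**
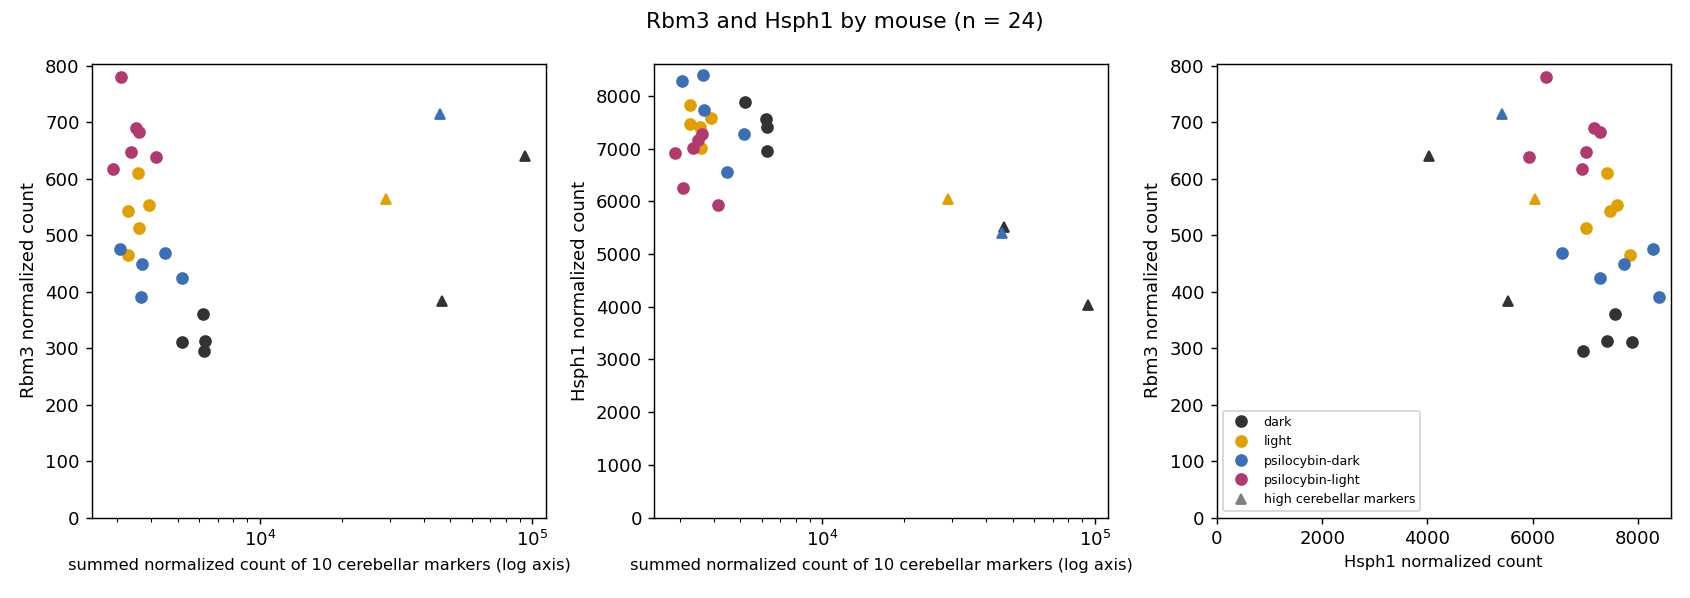
Rbm3 (left) and Hsph1 (middle) normalized counts against the summed count of 10 cerebellar markers on a log axis, and Rbm3 against Hsph1 (right), 1 point per mouse coloured by group, with triangles for the 4 mice with high cerebellar markers. Those 4 mice held the lowest Hsph1 count of each of their groups or, in dark, the 2 lowest (4035 and 5521), and among the other 20 mice the ranges of Rbm3 overlapped only between psilocybin-dark (390 to 475) and light mice (465 to 610). How many of all genes had groups as separate over these 20 mice was not computed.

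Cirbp, the other cold-induced gene, moved far less. Its lowest, median and highest normalized counts were 476, 527.6 and 666 in dark mice and 484, 512.4 and 598 in light mice. They were 482, 512.0 and 758 in psilocybin-dark mice and 525, 606.8 and 676 in psilocybin-light mice. All 4 groups overlapped, and the highest values in dark and psilocybin-dark belonged to the same mice 6 and 12 that were highest in Rbm3. Its log2 difference from dark was −0.06 (95% confidence interval −0.27 to 0.15) in light, 0.04 (−0.17 to 0.25) in psilocybin-dark and 0.14 (−0.06 to 0.35) in psilocybin-light mice, none past the threshold. With those 4 mice left out, Cirbp was higher in psilocybin-light mice than in dark mice by 0.21 ± 0.08 (SE; adjusted p = 0.0306 in edgeR) and than in psilocybin-dark mice by 0.22 ± 0.07 (adjusted p = 0.0458), and not past the threshold against light mice (0.20, adjusted p = 0.197).

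Among the heat shock genes, Hsp90aa1 was the only one called with all 24 mice. It lies at chr12:110656842-110669166 on the minus strand of GRCm39. Its lowest, median and highest normalized counts were 9792, 10560 and 10935 in dark mice, 8864, 9260 and 9816 in light mice, 8945, 9812 and 10530 in psilocybin-dark mice and 8764, 9068 and 9333 in psilocybin-light mice. Every psilocybin-light mouse was below every dark mouse, and light mice overlapped dark mice only through light mouse 13 and dark mouse 6.

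Hsp90aa1 fell in light mice by 0.18 on the log2 scale (SE 0.04, adjusted p = 0.00186 in edgeR), a level that fell by 11.6%. It fell in psilocybin-light mice by 0.22 (SE 0.04, adjusted p = 0.000229 in edgeR), a level that fell by 13.9%. The exact permutation p of the latter was 0.00216, the smallest possible (adjusted 0.0649). The difference of psilocybin-dark from dark mice was −0.10 ± 0.04 (SE, adjusted p = 0.0747 in edgeR) and that of psilocybin-light from psilocybin-dark mice −0.12 ± 0.04 (adjusted p = 0.0909). These last 2 comparisons passed the threshold without the 4 mice that stood apart, at −0.11 (adjusted p = 0.0212 in edgeR) and −0.13 (adjusted p = 0.00977), and the differences from dark were −0.19 in light and −0.24 in psilocybin-light mice. With the hippocampal covariate the differences from dark were −0.15 (adjusted p = 0.123 in edgeR) in light and −0.19 (adjusted p = 0.08) in psilocybin-light mice, no longer past the threshold. With the covariate and without the 4 mice they were −0.23 (adjusted p = 0.317) and −0.27 (adjusted p = 0.232). In 15.8% of all genes tested, and in 1 of the 10 here, psilocybin-light and dark mice did not overlap.

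The inducible HSP70 genes varied between mice more than between groups. Hspa1a had lowest, median and highest normalized counts of 66, 108.9 and 133 in dark mice, 95, 119.9 and 233 in light mice, 78, 86.85 and 139 in psilocybin-dark mice and 84, 105.1 and 122 in psilocybin-light mice. Hspa1b had 68, 191.3 and 283 in dark mice, 136, 210.2 and 276 in light mice, 92, 155.9 and 191 in psilocybin-dark mice and 133, 165.4 and 212 in psilocybin-light mice. All groups overlapped for both genes, and no comparison passed the threshold. Light mouse 18, with high cerebellar markers, was the highest of all light mice in Hspa1a, Hspa1b and Hspb1, and dark mouse 6 the lowest of all 24 mice in Hspa1a and Hspa1b. The widest gap for Hspa1a was between psilocybin-dark and light mice, −0.51 on the log2 scale (95% confidence interval −0.94 to −0.09, adjusted p = 0.224 in edgeR), and −0.26 without the 4 mice (adjusted p = 0.38). For Hspa1b the 95% interval of the log2 difference from dark ran from −0.37 to 0.67 in light and from −0.67 to 0.38 in psilocybin-light mice, so differences of over 1.5-fold in Hspa1b lay within the intervals.

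The constitutive gene Hspa8 had the smallest SD over 24 mice relative to its mean. Its lowest, median and highest normalized counts were 14452, 15820 and 16372 in dark mice, 15538, 15950 and 16111 in light mice, 14032, 16070 and 16542 in psilocybin-dark mice and 14135, 15240 and 16084 in psilocybin-light mice. The largest difference from dark was −4.2%, in psilocybin-light mice, with 95% intervals of the fold from 0.898 to 1.08 over the 3 comparisons, and none passed the threshold.

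Hsph1, the nucleotide exchange factor, had lowest, median and highest normalized counts of 4035, 7182 and 7881 in dark mice, 6048, 7440 and 7838 in light mice, 5409, 7505 and 8398 in psilocybin-dark mice and 5930, 6972 and 7282 in psilocybin-light mice. The lowest dark, light and psilocybin-dark mice were 3 of the 4 with high cerebellar markers, and dark mouse 1 was the second lowest of its group at 5521. No comparison of Hsph1 passed the threshold. With these mice left out, the dark and light means were 7453 ± 384.8 (SD, n = 4) and 7465 ± 301.2 (SD, n = 5), against 6763 ± 541.6 (SD, n = 6) in psilocybin-light mice.

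Of the J-domain genes, Dnajb1, which pairs with HSP70 under stress, had lowest, median and highest normalized counts of 941, 1500 and 1776 in dark mice, 1450, 1638 and 1697 in light mice, 1098, 1342 and 1502 in psilocybin-dark mice and 1302, 1415 and 1600 in psilocybin-light mice. Psilocybin-dark mice were below light mice except that light mouse 17, at 1450, was below psilocybin-dark mouse 10, at 1502. That difference was −0.29 ± 0.10 on the log2 scale (SE, unadjusted p = 0.0106 and adjusted p = 0.163 in edgeR), and without the 4 mice it was −0.23 ± 0.06 and passed the threshold (adjusted p = 0.0377). Dnajb1 was then also lower in psilocybin-dark than in dark mice (−0.21, adjusted p = 0.015 in edgeR), and in psilocybin-light mice the difference from dark was −0.15 (adjusted p = 0.0519). Dnaja1, a J-domain gene made in unstressed cells, ranged from 2389 to 2987 normalized counts over all 24 mice, and its largest group difference was −3.6%, in psilocybin-dark against dark mice, not past the threshold.

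Hspb1, the small heat shock gene, had lowest, median and highest normalized counts of 58, 78.31 and 107 in dark mice, 80, 94.72 and 202 in light mice, 64, 71.99 and 95 in psilocybin-dark mice and 43, 77.1 and 119 in psilocybin-light mice. Light mice had the highest mean, with light mouse 18 at 202. The log2 difference of light from dark mice was 0.56 ± 0.24 (SE, adjusted p = 0.0789 in edgeR), and 0.37 ± 0.24 (adjusted p = 0.214) without the 4 mice. Against light mice it was −0.67 (adjusted p = 0.162 in edgeR) in psilocybin-dark and −0.60 (adjusted p = 0.36) in psilocybin-light mice, none past the threshold. Vascular cells express Hspb1. The summed markers of endothelium and pericytes (10 of 10 detected) were highest in the same light mouse 18, at 8723 against 4263 to 7239 in the other groups. Psilocybin-dark mouse 10 (7239) and psilocybin-light mouse 23 (7009), next in these markers, had Hspb1 counts of 75 and 81. Light mouse 15 and psilocybin-light mouse 21, next in Hspb1 at 155 and 119, had marker sums of 6591 and 5550. A relation of Hspb1 to vessel content was not tested.

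**Figure D3:**
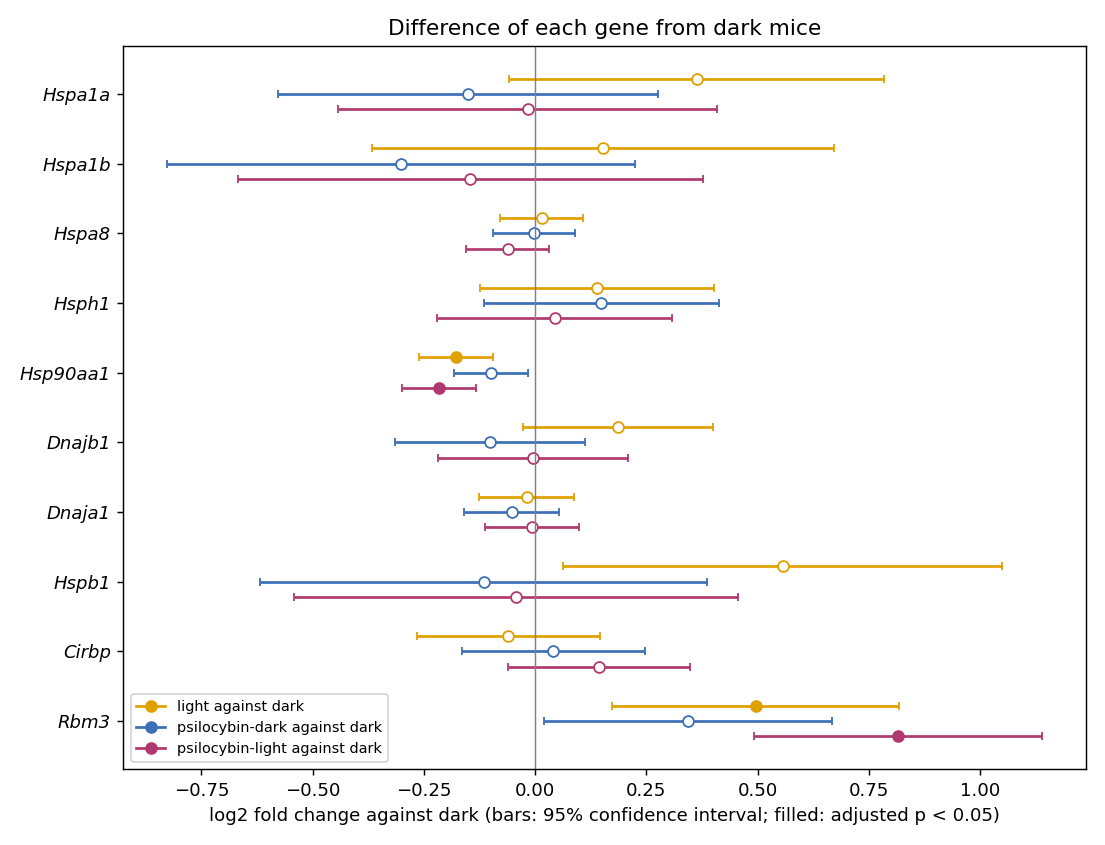
Log2 fold change of each gene against dark mice (horizontal axis) in light, psilocybin-dark and psilocybin-light mice, 6 mice a group, with 95% confidence intervals as bars and filled points where the adjusted p was under 0.05. Rbm3 was to the right of 0 in each comparison, Hsp90aa1 to the left, and the intervals of Hspa1a, Hspa1b, Hspa8, Hsph1, Dnajb1, Dnaja1 and Cirbp crossed 0.

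Counted over the comparisons, called members were few. In light against dark mice 1 of the 10 was higher and 1 lower, where 15.4% and 16.5% of all genes tested were called higher and lower. In psilocybin-light against dark mice 1 was higher and 1 lower, against 17.4% and 21% of all genes. In psilocybin-dark against dark mice no member was called, against 11.9% and 12.8% of all genes, although 2 members, Rbm3 and Hsp90aa1, had unadjusted p-values under 0.05 in edgeR (0.0388 and 0.0215), and DESeq2 called 1. These shares of the members were near or below those over all genes.

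In the other 4 tests a smaller share of all genes was called than against dark mice. No member was called in psilocybin-light against light mice (0.0553% of all genes higher and 0.553% lower), in psilocybin-light against psilocybin-dark mice (2.6% and 3.78%), in psilocybin-dark against light mice (0.194% and 0.263%) or in the interaction (3.89% and 4.86%) by edgeR. Unadjusted p-values were under 0.05 for 2, 2, 3 and 0 members in these comparisons (Rbm3 and Hspb1, Rbm3 and Hsp90aa1, then Hspa1a, Dnajb1 and Hspb1), and DESeq2 called 0, 2, 0 and 0. With the 4 mice with high cerebellar markers left out, edgeR called 2 members for light against dark (20.7% of all genes higher and 21.6% lower), 3 for psilocybin-dark against dark (18% and 19.7%) and 3 for psilocybin-light against dark (23.6% and 23.7%). The number was then 1 for psilocybin-light against light, 3 for psilocybin-light against psilocybin-dark, 2 for psilocybin-dark against light and 0 for the interaction, where 0.408% and 1.85%, 8.19% and 8.53%, 2.57% and 3.04%, and 13.7% and 12.7% of all genes were called higher and lower.

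Members varied together from mouse to mouse within groups. After group means were removed from log2 levels, 33 of the 45 pairs of genes were correlated at an adjusted p under 0.05 (permutation within groups, 100000 resamples), 19 positively and 14 negatively. Over the 20 mice without high cerebellar markers, 4 of the 45 pairs passed. Those 4 pairs were Hspa8 with Hsph1 (Pearson r = 0.87 over 20 mice, permutation p adjusted over 45 pairs 0.0027), Hspa8 with Hsp90aa1 (r = 0.72, adjusted p = 0.018), Hsp90aa1 with Dnaja1 (r = 0.73, adjusted p = 0.0288) and Hspa1b with Hsph1 (r = 0.54, adjusted p = 0.0342). All 4 were positive and joined heat shock genes, and these pairs were singled out after their values were seen. The share of all pairs of genes that would pass was not computed, so the counts of pairs cannot be read as particular to the members.

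The relations set down for testing were those of the HSP70 paralogs with each other, of the cold-induced genes with each other, and of Hspa1b with Cirbp. Hspa1a and Hspa1b, whose reads are partly shared, had r = 0.64 and Spearman's rho = 0.65 over 24 mice (permutation p = 0.00077 and 0.00157, adjusted over 3 relations 0.00228 and 0.00471), 0.51 without the farthest mice dark 6 and light 18, and 0.41 over 20 mice. Cirbp and Rbm3 had r = 0.71 and rho = 0.45 (permutation p = 0.00363 and 0.0342, adjusted 0.00363 and 0.0342), which fell to 0.35 without dark mouse 6 and psilocybin-dark mouse 12 and to 0.31 over 20 mice. Hspa1b and Cirbp had r = −0.64 and rho = −0.55 (permutation p = 0.00152 and 0.00605, adjusted 0.00228 and 0.00907), −0.40 without the same mice and −0.34 over 20 mice. None of the 3 relations passed the test over 20 mice (permutation p = 0.0604, 0.219 and 0.156).

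**Figure D4:**
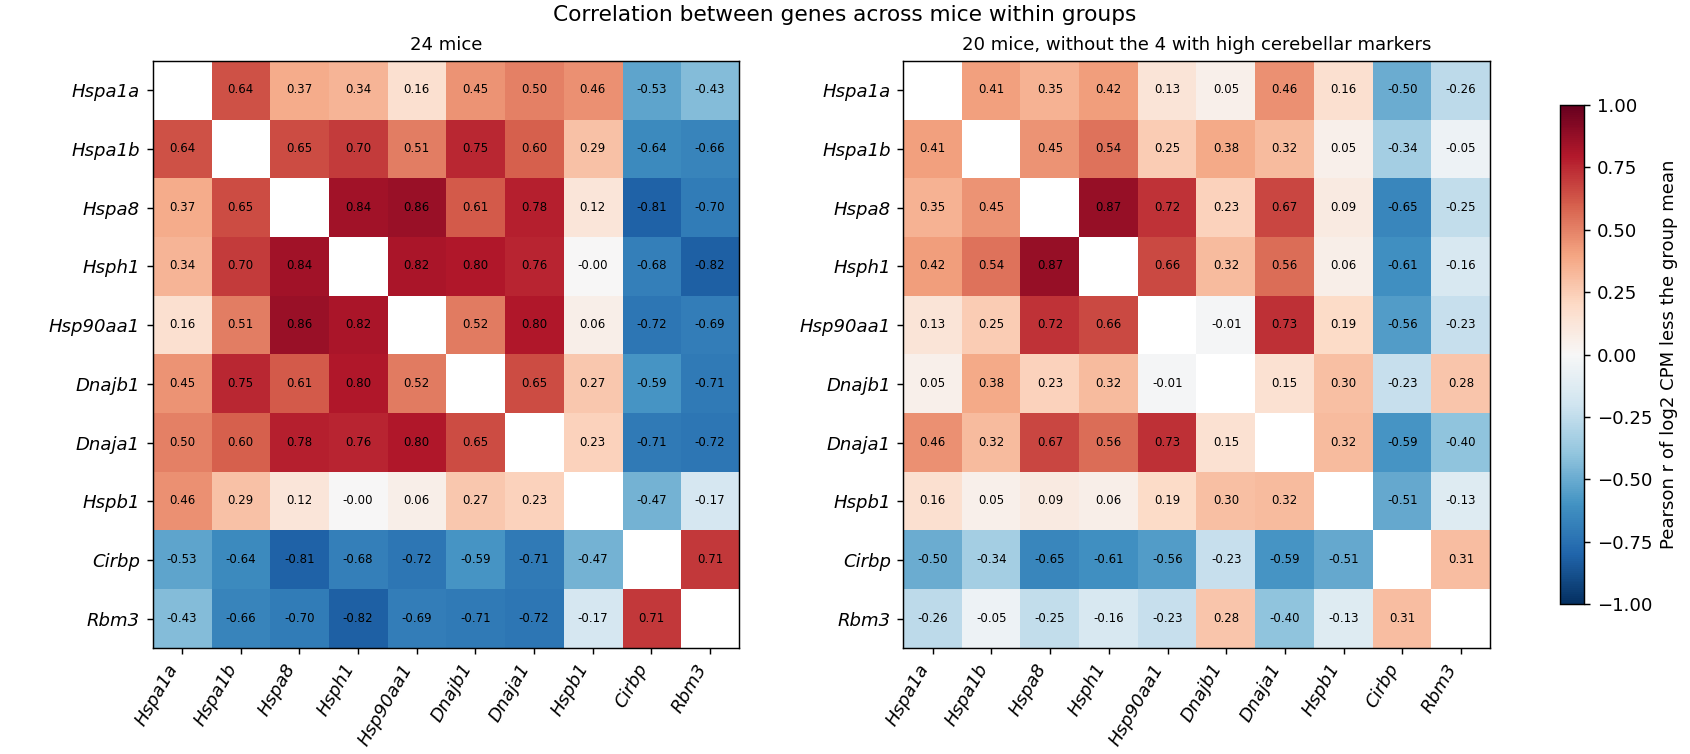
Pearson correlation (colour and number) of log2 levels less the group mean for each pair of the 10 genes, over 24 mice (left) and over the 20 mice without high cerebellar markers (right). The block of positive values among Hspa8, Hsph1, Hsp90aa1 and Dnaja1 is present on both sides, and the negative values of Rbm3 with these genes, −0.69 to −0.82 on the left, are −0.16 to −0.40 on the right.

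The genes outside the set whose levels were most like the mean standardized level of the 8 heat shock genes, over 24 mice and among genes with a mean of at least 100 normalized counts, were Pdia6 (r = 0.86), P4ha1 (0.81), Creld1 (0.81), Hyou1 (0.79) and Rpn1 (0.77). Unlike in the relations above, group means were left in for this search, so its r values mix differences between groups with those between mice. Pdia6 and Hyou1 encode chaperones of the endoplasmic reticulum, P4ha1 a prolyl hydroxylase of collagen in that organelle, and Rpn1 a subunit of the complex that attaches sugars there. Over 20 mice these values were 0.83, 0.69, 0.72, 0.81 and 0.68. Those most like the mean of Cirbp and Rbm3 were Plvap (r = 0.81), a protein of endothelial openings, Inpp5k (0.80), Ano8 (0.79), Ndufs3 (0.79), a subunit of respiratory complex I, and Slc35c2 (0.79). Over 20 mice they were 0.82, 0.78, 0.77, 0.83 and 0.72. The genes named here were picked for the highest r in these mice, so their r values, also over 20 of the mice, are raised by the choice. No test of them was run.

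The rest of the chaperone network was counted by lists, to be read beside the shares of all genes called. Against dark mice these shares were 15.4% higher and 16.5% lower in light mice. They were 11.9% and 12.8% in psilocybin-dark and 17.4% and 21% in psilocybin-light mice. The shares between the other groups and those without the 4 mice with high cerebellar markers are given above, as are those against dark with the hippocampal covariate. Of 30 other cytosolic chaperones and cochaperones, 2 rose and 4 fell in light against dark mice (median log2 fold change −0.06, against −0.01 over all genes), 2 rose and 6 fell in psilocybin-dark mice (−0.09 against −0.02), and 6 rose and 12 fell in psilocybin-light mice (−0.07 against −0.02). Dnajb5, a J-domain gene of brain and muscle, rose in light, psilocybin-dark and psilocybin-light mice by 0.84, 0.83 and 0.88 on the log2 scale, from a mean of 1944 normalized counts in dark mice to 3488, 3450 and 3585. Its interaction was −0.79, the only one called in this list. Bag5, which releases nucleotide from HSP70, rose by 0.34, 0.27 and 0.41. Bag3, the cochaperone of HSP70 in autophagy, fell in psilocybin-light mice (−0.55), as did the HSP70 gene Hspa2 (−0.52), and Bag3 was not called without the 4 mice with high cerebellar markers.

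The genes called between psilocybin-light mice and the light or psilocybin-dark mice were cochaperones, and all were lower in psilocybin-light mice in the fit of 24 mice. Without the 4 mice Stub1 was also called, higher in psilocybin-light than in psilocybin-dark mice. Chordc1, which binds HSP90, fell in psilocybin-light mice against dark (−0.45), light (−0.34) and psilocybin-dark mice (−0.26), with means of 1685 normalized counts in dark, 1556 in light, 1472 in psilocybin-dark and 1233 in psilocybin-light mice. Ptges3, the HSP90 cochaperone p23, fell against light (−0.23) and psilocybin-dark mice (−0.24), and St13, a cochaperone of HSP70, against psilocybin-dark mice (−0.155). Hspa4l fell in light against dark mice (−0.29), a call lost without the 4 mice, and Ahsa2 in psilocybin-dark against dark mice (−0.34). Without the 4 mice with high cerebellar markers, 4 genes of this list were higher and 7 lower in light than in dark mice. The numbers were 3 and 6 in psilocybin-dark and 5 and 10 in psilocybin-light mice. With the hippocampal covariate 2, St13 and Ptges3, both lower in psilocybin-light mice, were called in these comparisons. The calls of Dnajb5, Bag5, Bag3, Hspa2, Hspa4l, Ahsa2 and Chordc1 against dark were thus lost in that fit. Chordc1 was still called lower there in psilocybin-light than in light and psilocybin-dark mice. Astrocyte markers (7 of 7 detected) summed to 47140 to 53160 in psilocybin-light mice, against 52500 to 74310 in the other groups.

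The chaperonin TRiC, which folds actin and tubulin, was called lower in most subunits. Of 8 subunits, 6 fell in light mice, 5 in psilocybin-dark mice and 6 in psilocybin-light mice, with none higher, and median log2 fold changes of −0.17, −0.14 and −0.16. Of all genes 16.5%, 12.8% and 21% were called lower in these comparisons. Cct8 had log2 differences of −0.24, −0.18 and −0.19 and Cct4 of −0.20, −0.16 and −0.28, and Cct5 and Cct8 had positive interactions (0.22 and 0.23). None was called between the other groups. With the hippocampal covariate 1, 0 and 0 subunits were called against dark, and without the 4 mice 7, 7 and 7. No interaction of a subunit was called with the covariate, while those of Cct5 and Cct8 were still called without the 4 mice.

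Of 6 mitochondrial chaperones, Hspd1 fell in light (−0.22), psilocybin-dark (−0.16) and psilocybin-light mice (−0.26), Hspe1 fell in psilocybin-dark (−0.34) and psilocybin-light mice (−0.24), and Grpel1 rose in light (0.15) and psilocybin-light mice (0.18), the latter also against psilocybin-dark mice (0.15). None of the 6 was called against dark with the hippocampal covariate. Without the 4 mice with high cerebellar markers 1 was higher and 3 lower in light, 0 and 3 in psilocybin-dark, and 2 and 2 in psilocybin-light than in dark mice.

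Of 5 heat shock transcription factors and regulators, 4 were tested. Hsf1, the main regulator, rose in light mice (0.23) and was lower in psilocybin-dark than in light mice (−0.25). Hsf4 rose in light (0.58), psilocybin-dark (0.33) and psilocybin-light mice (0.82), from a mean of 169.6 normalized counts in dark mice to 253.8, 213 and 300.2. Hsf4 was also higher in psilocybin-light than in psilocybin-dark mice (0.50), whereas Hsf2 was lower in psilocybin-light mice than in dark (−0.35) and psilocybin-dark mice (−0.22), and Hsbp1 than in dark mice (−0.22). With the hippocampal covariate neither Hsf2 nor Hsbp1 was called in any of these comparisons, and Hsf4 was not called in psilocybin-dark against dark mice. Without the 4 mice Hsf2 and Hsbp1 were called lower than in dark mice in light, psilocybin-dark and psilocybin-light mice alike.

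Chaperones of the endoplasmic reticulum, which serve secreted and membrane proteins and are switched on by other factors than HSF1, differed in psilocybin-light mice. Of 13 genes, 9 fell against dark mice, 7 against light mice and 4 against psilocybin-dark mice, with median log2 fold changes of −0.30, −0.26 and −0.19, where the medians over all genes were −0.02, −0.01 and −0.01. None of the 13 rose in these comparisons, in which 21%, 0.553% and 3.78% of all genes were called lower. Pdia4, a disulfide isomerase, had log2 differences of −0.59, −0.66 and −0.49 (adjusted p = 4.64e-05, 0.00328 and 0.00343 in edgeR), with means of 981.8 normalized counts in dark, 1024 in light, 910.9 in psilocybin-dark and 650.1 in psilocybin-light mice. Its lowest dark, light and psilocybin-dark values were 744.8, 815 and 678.7 and the highest psilocybin-light value 707.5, so that psilocybin-light mice lay below all dark and light mice. Canx, the lectin chaperone calnexin, fell against dark (−0.47) and psilocybin-dark mice (−0.31), Dnajc3 against psilocybin-dark mice (−0.27), Sdf2l1 against dark (−0.52) and light mice (−0.69) and Creld2 against light mice (−0.48). The interaction was called for Pdia4 (−0.55, adjusted p = 0.0145 in edgeR), also without the 4 mice with high cerebellar markers. With the hippocampal covariate neither this interaction nor the difference of Pdia4 from dark was called. Pdia4 was still called lower there in psilocybin-light than in light and psilocybin-dark mice.

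In the other comparisons the endoplasmic list changed little. Light mice had Creld2 higher (0.30) and Canx lower (−0.28) than dark mice, and psilocybin-dark mice had Canx lower (−0.16). With the hippocampal covariate 3, 5 and 3 genes of this list were called lower in psilocybin-light mice against dark, light and psilocybin-dark mice, and without the 4 mice with high cerebellar markers 10, 9 and 10. Of all genes 7.29%, 0.546% and 4.63% were called lower with the covariate, and 23.7%, 1.85% and 8.53% without the 4 mice. Of 7 splicing factors and kinases linked to temperature, Clk1 (0.47), Srsf5 (0.39) and Clk4 (0.36) rose in light mice, Srsf5 rose in psilocybin-dark (0.30) and psilocybin-light mice (0.54), and Srsf10 fell in psilocybin-light mice (−0.13). None of the 7 was called with the hippocampal covariate in light or psilocybin-dark against dark mice, and Srsf5 and Srsf10 were called in psilocybin-light mice. Without the 4 mice Clk4 was no longer called in light mice, and Hnrnph1 was called higher than in dark mice in each of the other groups.

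**Figure D5:**
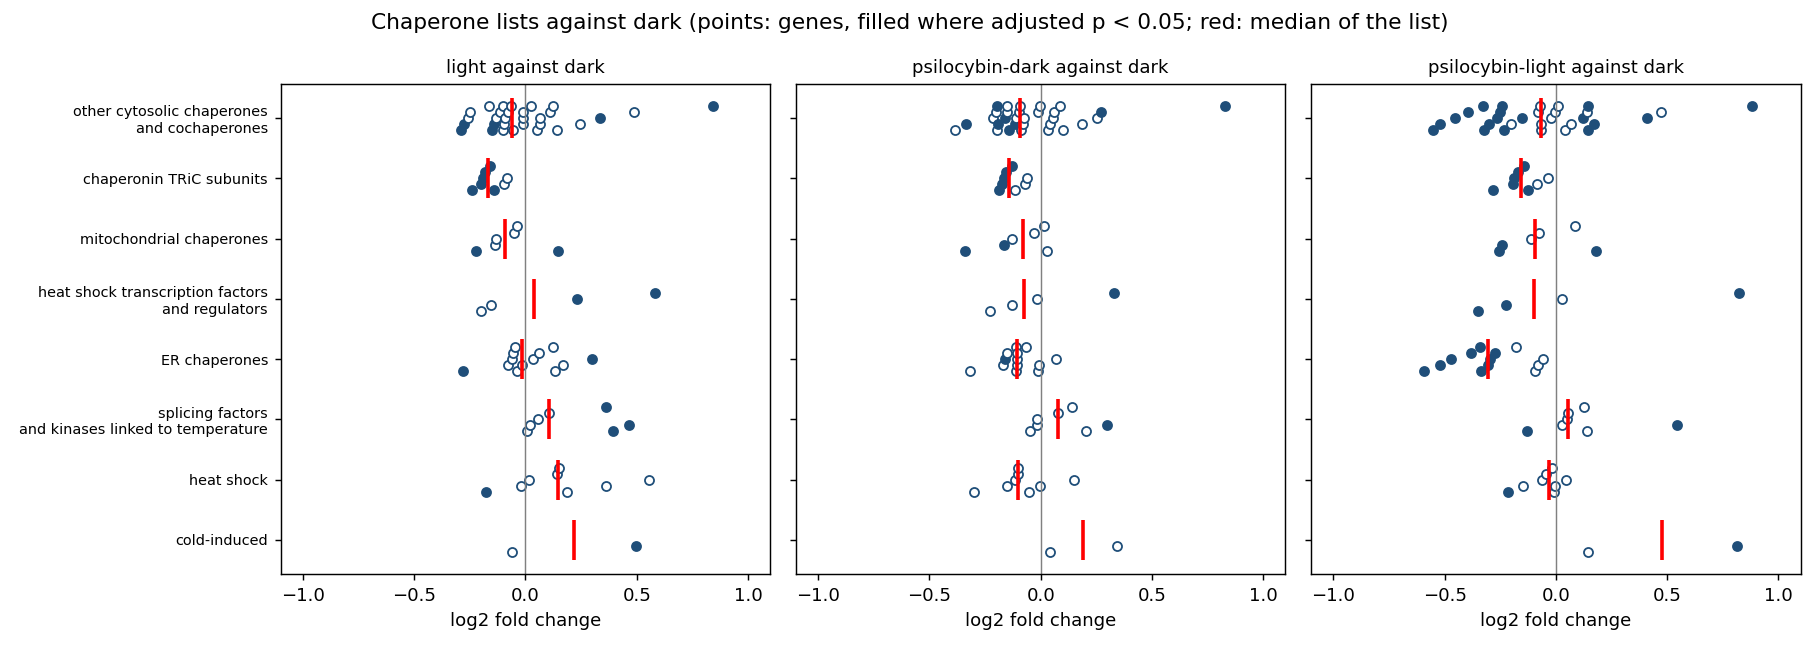
Log2 fold change against dark mice (horizontal axis) of the genes in each list, in light, psilocybin-dark and psilocybin-light mice, with 1 point per gene, filled where the adjusted p was under 0.05, and the median of the list in red. The endoplasmic reticulum list has a median of −0.02 in light and −0.30 in psilocybin-light mice, and the TRiC list lies left of 0 in each comparison.

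Compared over sets in psilocybin-light against light mice, the 8 heat shock genes had a median log2 fold change of −0.14 with none called, and the 13 endoplasmic reticulum genes −0.26 with 7 called. A difference between these sets was not tested. The comparisons against dark share the same dark mice, and their values are therefore set side by side without a measure of likeness.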

How the data were processed

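RNA-seq of the visual cortex of 24 mice was used, with 1 library per mouse and 6 mice per group. Per the study's methods, the authors trimmed reads with cutadapt, mapped them with STAR to GRCm39 and counted them per gene with htseq-count, whose strand and multi-mapping settings are not given in the sources used here, so a gene and its antisense partner may share reads. The submitters' processing notes name the build mm10 instead, which does not enter the counts used here. The deposited values are raw counts, without normalization, and no column of other samples was used. Groups follow the headings of the supplementary count table. Counts were fitted in R 4.3.3 with edgeR 4.0.16 (TMM scaling, quasi-likelihood negative binomial model, 1 term per group, all 24 mice, common biological coefficient of variation 0.182). A gene entered the test if any library held 30 or more of its counts (14464 genes), tests were two-sided, and the Benjamini-Hochberg adjustment ran over all tested genes with a threshold of 0.05. Normalized counts refer to a library of 16058300, the mean effective size. Log2 levels for permutation tests and correlations used a prior count of 2. Depth limits the precision of genes of low count (Hspa1a 65 to 232 raw counts, Hspb1 39 to 201).

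The members, lists and rule for named genes were chosen with earlier results of these data known. All 10 members are named in each comparison, and for each list up to 3 called genes per comparison with the largest change. Lists were other cytosolic chaperones and cochaperones, TRiC, mitochondrial chaperones, heat shock factors, endoplasmic reticulum chaperones and splicing factors linked to temperature, with marker lists of cortical neurons, GABA neurons, vessels, astrocytes, oligodendrocytes, microglia, red blood cells, hippocampus and cerebellum. Gene positions, names and exon lengths came from GENCODE vM39. The fit was tested on simulated data. Alternatives were DESeq2 1.42.0, other scaling and filters, a surrogate variable from sva 3.50.0, a hippocampal covariate, the sample labels' exposure, and mice left out. No library was a copy of another: over 60 pairs within groups the lowest chi-square per degree of freedom was 3.07. Figures were drawn with matplotlib 3.10.9.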

Additional observations from a re-analysis of the deposited data

Results flagged for a closer look

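In 40 groups of 6 mice (10 genes in 4 groups), the gap between an extreme mouse and its neighbour was compared with the range of the group, and 2 groups had a gap above the critical share of 0.625, about as many as the 2 that chance gives. Both were in Rbm3: dark mouse 6 had a normalized count of 640, where the next highest dark mouse had 384, and psilocybin-dark mouse 12 had 714, where the next highest had 475. The same mice were the lowest of their groups in Hspa1b, Hspa8, Hsph1, Hsp90aa1, Dnajb1 and Dnaja1 and the highest in Cirbp. Their cerebellar markers summed to 94070 and 45600. The part of that tissue in the Rbm3 values was not tested.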

How the results depend on the processing

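Members called among the 10 changed with the processing as follows. DESeq2 called 1 in psilocybin-dark against dark and 2 in psilocybin-light against psilocybin-dark, where it called 3840 and 1197 of all 14464 genes tested. With only the groups compared, which gives no interaction, 1 was called in each of light against dark, psilocybin-light against psilocybin-dark and psilocybin-dark against light. Over all genes 3089, 1643 and 243 were called there. With 1 surrogate variable 4 were called in light against dark, 2 in psilocybin-dark against dark, 2 in psilocybin-light against psilocybin-dark and 1 in psilocybin-dark against light. That fit called 6079, 4976, 1952 and 786 of all genes. With the hippocampal covariate 0 were called in light and in psilocybin-light against dark, where 1375 and 1688 of all genes were. An adjusted p under 0.01 left 1 in light against dark, and 2853 of all genes. Without dark mice 1 and 6 the counts were 3 in psilocybin-dark against dark, 2 in psilocybin-light against psilocybin-dark and 1 in psilocybin-dark against light. Over all genes 4851, 1727 and 651 were called there. Without the 4 mice with high cerebellar markers the member counts were 3, 3 and 2, with 1 in psilocybin-light against light. Over all genes 5445, 2418, 811 and 326 were called there. With the hippocampal covariate as well, 0 were called in light against dark and 1 in psilocybin-light against dark (13 and 19 of all genes). Psilocybin-light mice then had 1 against light and 4 against psilocybin-dark mice, and psilocybin-dark against light had 2 (350, 2256 and 993 of all genes). Both of these last settings were chosen after seeing the data. The cause was not tested.

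Under the sample labels' exposure 0 were called in psilocybin-light against dark and 2 in psilocybin-dark against light, since the names change places. Hsp90aa1 then was 0.18 and Rbm3 −0.50 in light against dark, 0.0779 and −0.15 in psilocybin-light against dark, and −0.22 and 0.82 in psilocybin-dark against light (log2). Leaving out each mouse gave 2 to 3 members in light against dark, 0 to 2 in psilocybin-dark against dark, 2 to 2 in psilocybin-light against dark, 0 to 2 in psilocybin-light against psilocybin-dark, 0 to 1 in psilocybin-dark against light and 0 to 0 in the others. Over all genes these fits called 3924 to 4990, 2763 to 4196, 4907 to 5780, 584 to 1236 and 3 to 328 in the comparisons named, in that order. Rbm3 was called in 24 of 24 such fits in light (0.43 to 0.71) and psilocybin-light against dark (0.75 to 1.03), as was Hsp90aa1. Dark mouse 6 moved most: without it Rbm3 was called in psilocybin-dark against dark (0.55, adjusted p = 0.00129 in edgeR) and in psilocybin-light against psilocybin-dark (0.48, adjusted p = 0.00923). Without psilocybin-dark mouse 12 the latter was 0.62 (adjusted p = 0.0122 in edgeR). No paired analysis was possible because replicate numbers are library numbers, which the groups do not share. Low counts limit Hspa1a, Hspa1b and Hspb1, whose 95% intervals reached 1.72-, 1.59- and 2.07-fold in light against dark.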

Other observations

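Other marker lists gave the following sums of normalized counts over all mice. Markers of GABA neurons (6 of 6 detected) summed to 14570 to 23010 in dark, 15290 to 17010 in light, 14550 to 18980 in psilocybin-dark and 15190 to 17520 in psilocybin-light mice. Microglial markers (8 of 8) summed to 4022 to 6383 in dark, 6058 to 7122 in light, 5213 to 7004 in psilocybin-dark and 6013 to 6693 in psilocybin-light mice, with 4 genes called higher in light and 3 in psilocybin-light than in dark mice. Oligodendrocyte markers (8 of 8) ranged from 19360 to 131200 among dark mice. Red blood cell markers (5 of 5) had medians of 484.6 in dark, 963 in light, 598.1 in psilocybin-dark and 967.4 in psilocybin-light mice, with none of the 5 genes called. No list had a marker at 0 in all mice.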
